A study of Homo sapiens with 4 samples.

Results

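The interferon-stimulated genes and regulators described here are 38 of the 60675 genes in the tables, chosen by name: receptors, kinases and transcription factors of the type I interferon pathway, and genes that interferon induces, other than the IFIT and IFITM families. The choice was made with earlier results of these data known. Each symbol matched exactly 1 gene. Of the 38, 31 passed the low-count filter and were tested, 6 had too few counts, and SAMD9L had 0 counts in every library.

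RNA was sequenced from MM134 cells, an estrogen receptor positive line of invasive lobular breast carcinoma. HER2 L755S cells, whose HER2 receptor carries a substitution in the kinase domain, were compared with HER2 WT cells. Before harvest the cells of each line spent 7 days without estrogen, in phenol red free medium containing 5% stripped serum. Each line is represented by 2 libraries (numbers 1 and 2). The labels do not say how either form of HER2 was introduced, whether a line is 1 clone, or whether its libraries came from separate cultures. The p-values therefore cover the spread between these libraries alone, and that spread may be technical. Counts per gene cannot show the substitution itself.

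Type I interferons bind a receptor made of IFNAR1 and IFNAR2, which carries the kinases TYK2 and JAK1. These phosphorylate STAT2, which works with IRF9 in the complex ISGF3, and ISGF3 binds interferon-stimulated response elements (ISRE) upstream of antiviral genes. Interferon gamma acts through gamma-activated sites (GAS) and induces IRF1 and the immunoproteasome. Epithelial tumour cells can keep part of this program active without infection.

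The bases upstream of the start of ISG15 and IFI6 are shown first because these were the called members. They are the 250 bases before the RefSeq start on GRCh38.p14, written 5′ to 3′ in the direction of the gene. Capitals mark matches to an ISRE-like motif, GAAANNGAAA on either strand.
ISG15 (chr1:1013247-1013496, plus strand): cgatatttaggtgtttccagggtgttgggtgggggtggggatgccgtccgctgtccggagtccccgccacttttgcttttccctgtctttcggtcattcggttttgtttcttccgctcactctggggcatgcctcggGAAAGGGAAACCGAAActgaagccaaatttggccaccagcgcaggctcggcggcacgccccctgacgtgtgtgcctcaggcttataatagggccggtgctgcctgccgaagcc
IFI6 (chr1:27672193-27672442, minus strand): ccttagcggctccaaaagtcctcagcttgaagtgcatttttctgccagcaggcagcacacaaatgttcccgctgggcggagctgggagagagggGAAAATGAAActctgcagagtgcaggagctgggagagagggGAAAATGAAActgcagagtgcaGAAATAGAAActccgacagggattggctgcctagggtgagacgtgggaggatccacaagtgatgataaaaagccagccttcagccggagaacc
The ISG15 stretch lies within the longer gene body that GENCODE 29 gives it. In ISG15 the capitals hold 2 overlapping matches, the first starting 113 bases before the start. In IFI6 there were 3 separate matches, starting 156, 115 and 93 bases before it.

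Of the 38 members, 32 had promoter entries in RefSeq, and 17 of these (53.1%) held the ISRE-like motif in the 250 upstream bases of at least 1 start. Over all 27305 genes with an entry the share was 3.71%, and over all 35116 entries it was 3.02%. A GAS-like motif, TTCNNNGAA, was present in 11 of the 32 (34.4%) and in 8.09% of all genes. In BST2, MX1, IFI27 and EPSTI1 a match to one shared bases with a match to the other. A match describes the letters and is no evidence of binding.

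The motif occurred both in members that were separate between the lines and in members that were not. As examples, 1 match each in BST2 and DDX60 is set beside those in MX1 and SAMD9. Scaled counts of BST2 and DDX60 did not overlap between the lines, and those of MX1 and SAMD9 did. The grouping depends on the measure. In TPM, the authors' abundance corrected for transcript length, DDX60 overlapped and MX1 was above HER2 WT in both libraries. Capitals mark the ISRE-like match.
BST2 (chr19:17405745-17405766, minus strand): ttctggGAAACTGAAActgaaa
DDX60 (chr4:168318790-168318811, minus strand): agaaagGAAACCGAAActcccg
MX1 (chr21:41431848-41431869, plus strand): actctgTTTCTCTTTCcgtgaa
SAMD9 (chr7:93118100-93118121, minus strand): agaaatGAAACTGAAAccaaac
Among the 13 tested members with the motif, 7 were above HER2 WT in both HER2 L755S libraries and 6 overlapped, with a median log2 fold change of 0.87. Among the 13 tested members with an entry and no match, 5 were above, 4 were below and 4 overlapped, with a median of 0.26. Over all tested genes 16.9% were above and 19.3% below. Of 5 tested members without an entry, 2 were above and 3 overlapped, with a median of 0.18. The group with no match holds CMPK2 and PSMB9, which passed the low-count filter through the HER2 L755S and the HER2 WT libraries alone. It also holds IFNAR1, JAK1, TYK2, STAT2, IRF1 and IRF9. The group with the motif holds no receptor, kinase or transcription factor, so the groups also differ in role. IRF9 and CMPK2, both above, held no ISRE-like match in this window.

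**Figure D1:**
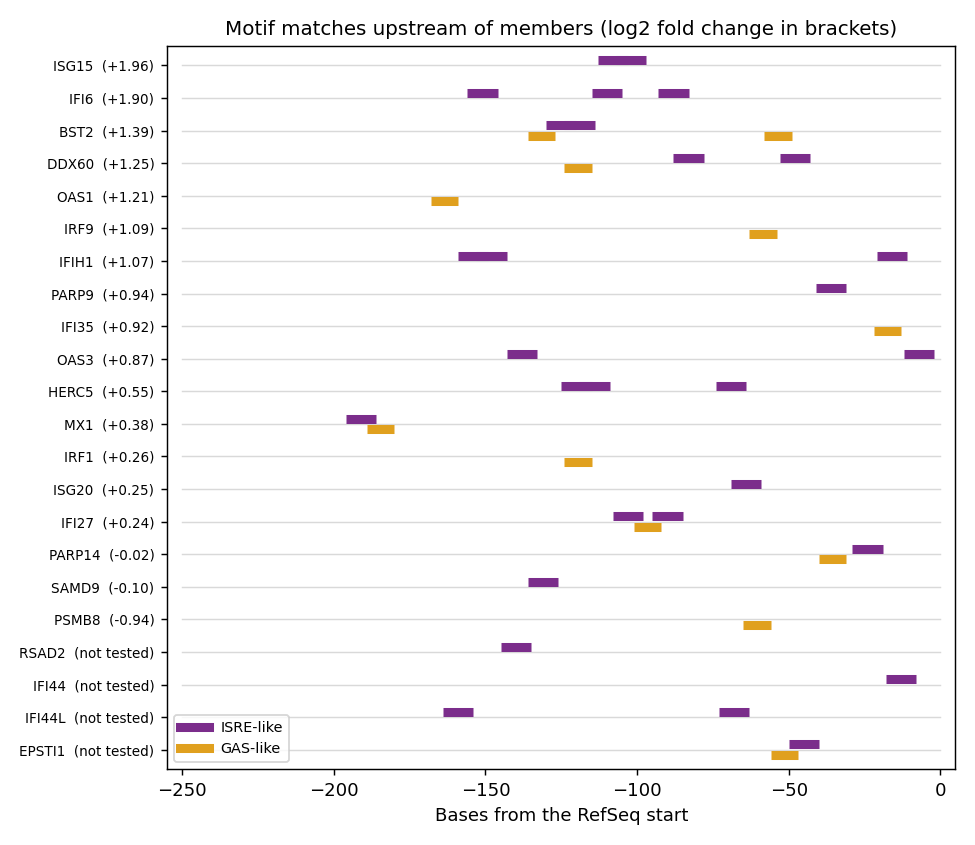
Positions of ISRE-like (purple) and GAS-like (yellow) matches in the 250 bases before the RefSeq start (x axis, bases) of each member that holds one, ordered by log2 fold change of HER2 L755S over HER2 WT, for the first listed start with a match, with untested members at the bottom. ISRE-like matches occur in tested members from 1.96 (ISG15) down to -0.10 (SAMD9), but OAS1, IRF9, IFI35 and IRF1 within that range hold GAS-like matches only.

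Total expected counts were 27423247 to 28836412 in HER2 L755S and 28804772 to 31088422 in HER2 WT libraries. All 8 luminal epithelial markers were tested, and their summed level was 9151 and 9376 CPM (counts scaled to a common library size) in HER2 L755S, against 9298 and 8636 CPM in HER2 WT. None was called, but 4 lay above and 2 below HER2 WT in both libraries, among them ESR1, the estrogen receptor gene, at 64.7 and 122 CPM in HER2 L755S, against 176 and 282 CPM in HER2 WT (log2 -1.29, adjusted p = 0.148). All 16 leukocyte markers were too low to test, 8 of them had 0 counts in every library, and PTPRC had at most 1 count. Their summed level was 0.467 to 1.09 CPM in HER2 L755S and 0.517 to 1.05 CPM in HER2 WT. Of 10 fibroblast and endothelial markers 3 were tested. The summed level of all 10 was 62.3 to 115 CPM in HER2 L755S and 55.0 to 101 CPM in HER2 WT, nearly all from COL1A1. COL1A1 was lower in number 2 than in number 1 in each line. COL1A2 had 6 and 49 counts in HER2 L755S and 0 and 45 in HER2 WT. COL3A1 had 0 and 32 in HER2 L755S and 1 and 53 in HER2 WT, so both lay mostly in the number 2 libraries. Mitochondrial transcripts took 4.03% and 13.5% of counts in HER2 L755S 1 and 2 and 4.395% and 8.83% in HER2 WT 1 and 2, and 12 immediate early genes summed to 864 and 254 CPM in HER2 L755S, against 734 and 134 CPM in HER2 WT. These values differed between numbers in each line, and their part in the results below was not tested. Differences are therefore also given within the number 1 libraries and within the number 2 libraries, which are called pair 1 and pair 2 by their number alone. In bulk RNA, fewer cells expressing a gene and less of its RNA per cell cannot be told apart.

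The question was how these genes differed between estrogen-deprived HER2 L755S and HER2 WT cells. ISG15 and IFI6 rose in HER2 L755S cells, by 1.96 and 1.90 on the log2 scale, and no member fell by the same test (edgeR's quasi-likelihood test, Benjamini-Hochberg adjusted p under 0.05). BST2, OASL, IRF9, IFIH1, DDX60 and the sparsely counted CMPK2 had log2 differences above 1 in each pair but did not pass. The receptor genes IFNAR1 and IFNAR2 and the factor STAT2 had log2 fold changes between -0.08 and -0.04, and the immunoproteasome genes PSMB8 and PSMB9 were below HER2 WT in both libraries. The low-count filter kept CMPK2 through the HER2 L755S libraries alone and PSMB9 through the HER2 WT libraries alone. The direction of each was therefore favoured by the filter.

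Of the 31 tested members 2 were called higher, and of all 16538 tested genes 0.738% were. In the lower direction 0 members were called, against 0.949% of all tested genes. At an unadjusted p under 0.05, edgeR gave 11 members higher (background 4.08%) and 2 lower (background 6.46%), and 2 of 31 is the background share. DESeq2 called 5 higher (background 1.67%) and 0 lower (1.87%), and limma-voom 2 higher (0.738%) and 0 lower (0.943%). In CPM, both HER2 L755S libraries lay above both HER2 WT libraries for 14 members (45.2%, background 16.9%). Both lay below for 4 (12.9%, background 19.3%), and 13 overlapped. In TPM (abundance corrected for transcript length), HERC6, OAS3 and DDX60 overlapped, while MX1 and IFI27 were above HER2 WT in both libraries. CPM were scaled between libraries by TMM and TPM were not, so length is not the only difference between these measures. A log2 difference of at least 1 in both pairs was seen for 8 members upward (25.8%, background 2.85%) and for 1, PSMB9, downward (3.23%, background 4.58%). CMPK2 passed the low-count filter through the HER2 L755S libraries only, and PSMB9 through the HER2 WT libraries only. Without these, 13 of 29 members were above and 3 below, and 7 of 29 were past 1 upward in both pairs. The median log2 fold change of the tested members was 0.43 (0.56 in pair 1, 0.37 in pair 2), against 0.003 over all tested genes. Because the members were chosen with earlier results of these data known, these shares and medians describe the list and do not test it. With 2 libraries against 2, an exact permutation test of a single value could not give a two-sided p below 0.333, so no such test was used.

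**Figure D2:**
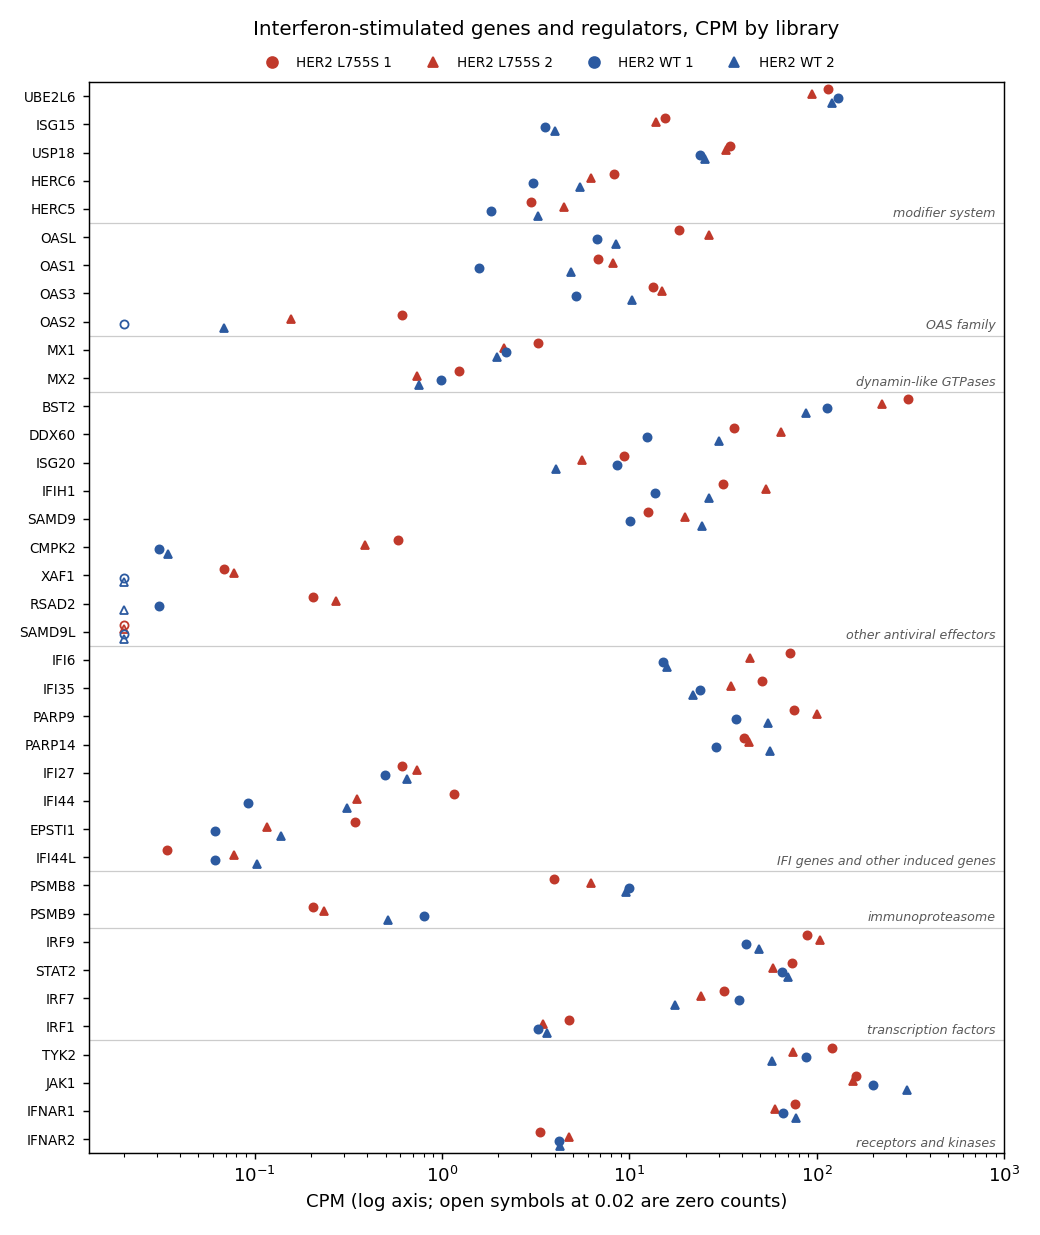
CPM (log axis) of all 38 members in the 2 HER2 L755S libraries (red) and the 2 HER2 WT libraries (blue), with circles for number 1 and triangles for number 2 and members grouped by role. ISG15 stood at 15.5 and 13.9 CPM in HER2 L755S cells and 3.55 and 3.99 CPM in HER2 WT, while the points of STAT2 and IFNAR1 interleave.

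ISG15 (ENSG00000187608, plus strand, GRCh38 chromosome 1, 1001138 to 1014540, GENCODE 29) encodes a ubiquitin-like protein that is attached to other proteins. It stood at 15.5 and 13.9 CPM in HER2 L755S 1 and 2, against 3.55 and 3.99 CPM in HER2 WT 1 and 2, or 14.7 ± 1.14 and 3.77 ± 0.312 (mean ± SD, n = 2). The libraries of each line were close together and the lines did not overlap. The log2 fold change was 1.96 (SE 0.37, 95% interval 1.14 to 2.78), with 2.12 in pair 1 and 1.796 in pair 2 (edgeR, adjusted p = 0.0259). Over the fits with other settings it stayed between 1.88 and 2.06, and the adjusted p ranged from 6.9e-05 to 0.044. ISG15 and IFI6 each overlap antisense genes in GENCODE 29, and the labels do not give the strand setting of the counting, so reads of the antisense partner cannot be told apart from theirs.

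The other enzymes of ISG15 conjugation did not pass the test. UBE2L6, the conjugating enzyme, stood at 115 and 94.0 CPM in the HER2 L755S line, against 130 and 121 CPM in HER2 WT, a log2 fold change of -0.27 (95% interval -0.93 to 0.40). It was slightly below HER2 WT in both libraries, the opposite side from ISG15. HERC5, the ligase for ISG15 in human cells, stood at 2.97 and 4.48 CPM in HER2 L755S, against 1.82 and 3.27 CPM in HER2 WT, and the lines overlapped. Its relative HERC6 stood at 8.24 and 6.27 CPM in HER2 L755S cells and 3.06 and 5.475 CPM in HER2 WT, with a log2 difference of 1.43 in pair 1 and 0.20 in pair 2. USP18, which removes ISG15 and also restrains signalling at IFNAR2, stood at 34.3 and 32.8 CPM in the HER2 L755S line, against 23.9 and 25.4 CPM in HER2 WT. The libraries of USP18 did not overlap between the lines, but the difference was small, at 0.44 (95% interval -0.27 to 1.15, edgeR, adjusted p = 0.838). In TPM it stood at 23.1 and 17.3 in HER2 L755S and 16.55 and 16.9 in HER2 WT, with the same length in every library. USP18 has a near-identical copy in the genome, and its expected counts were not all whole, so its level is uncertain.

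The OAS family makes 2-5A, the activator of RNase L, in response to double-stranded RNA, except OASL, which lacks that activity and enhances RIG-I signalling. The highest mean TPM in the family was that of OASL, at 10.7 and 12.7 TPM (the authors' abundance corrected for transcript length) in HER2 L755S and 4.08 and 4.41 TPM in HER2 WT. In HER2 WT its range overlapped that of OAS1, at 3.39 and 4.44 TPM. In CPM OASL stood at 18.4 and 26.7 in HER2 L755S against 6.74 and 8.44 in HER2 WT. Its log2 fold change was 1.57 (SE 0.37, 95% interval 0.76 to 2.38), with 1.45 and 1.66 in the pairs. It did not pass in all 4 libraries (edgeR, adjusted p = 0.061) and passed without HER2 L755S 1, at 1.81 (0.012). It did not pass without HER2 L755S 2, at 1.27 (0.23), without HER2 WT 1, at 1.41 (0.2), or without HER2 WT 2, at 1.76 (0.068).

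OAS1 stood at 6.77 and 8.18 CPM in HER2 L755S, against 1.58 and 4.89 CPM in HER2 WT. HER2 WT 1 was the low library, so the difference was 2.09 in pair 1 and 0.74 in pair 2. The log2 fold change was 1.21 (95% interval 0.07 to 2.36, edgeR, adjusted p = 0.427). It rested on which HER2 WT library was used: without HER2 WT 2 it was 2.26 (adjusted p = 0.024) and without HER2 WT 1 it was 0.61 (adjusted p = 0.95). Without HER2 L755S 1 and 2 it was 1.34 and 1.07 (adjusted p = 0.23 and 0.59). RSEM assigned OAS1 a mean transcript length of 830 bases in HER2 WT 1 and 1493 to 1618 bases in the other libraries. Its TPM (6.85 and 6.21 in HER2 L755S, 3.39 and 4.44 in HER2 WT) shows a smaller gap than its CPM, and these measures also differ in scaling. OAS3 stood at 13.3 and 15.0 CPM in HER2 L755S cells and 5.22 and 10.3 CPM in HER2 WT, again with HER2 WT 1 lowest. OAS2 had 18 and 4 counts in HER2 L755S and 0 and 2 in HER2 WT, and the ratio was 12.3 with a 95% counting interval (counting error only, here and below) of 3.02 to 108. Most of its counts were in HER2 L755S 1. OAS1, OAS3 and OAS2 lie side by side on chromosome 12, where all 3 overlap the antisense gene AC004551.1.

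MX1 and MX2, dynamin-like GTPases that block viral nucleocapsids, overlapped between the lines. MX1 stood at 3.25 and 2.14 CPM in the HER2 L755S line, against 2.19 and 1.96 CPM in HER2 WT, a log2 fold change of 0.38 (95% interval -0.66 to 1.41). In TPM it stood at 2.50 and 1.3 in HER2 L755S and 1.06 and 1.05 in HER2 WT. The wider gap in TPM goes with shorter estimated lengths, 1894 and 1888 bases in HER2 L755S against 2961 and 2583 bases in HER2 WT. MX2 stood at 1.23 and 0.740 CPM in HER2 L755S, against 0.989 and 0.758 CPM in HER2 WT, and its log2 fold change turned to -0.24 without HER2 L755S 1.

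BST2, or tetherin, holds budding virions at the cell surface. It had the highest mean TPM of the 38 members, with 494 and 284 TPM in HER2 L755S against 189 and 140 TPM in HER2 WT. In CPM it stood at 305 and 224 in HER2 L755S and 114 and 87.4 in HER2 WT. Both HER2 L755S libraries were well above both HER2 WT libraries, and number 2 was the lower library in each line. Its log2 fold change was 1.39 (SE 0.32, 95% interval 0.69 to 2.10), with 1.42 and 1.36 in the pairs (edgeR, adjusted p = 0.0589). Without HER2 L755S 2 it was called at 1.596 (adjusted p = 0.016). It was not called without HER2 L755S 1, at 1.15 (0.17), without HER2 WT 1, at 1.59 (0.061), or without HER2 WT 2, at 1.23 (0.28).

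Next to BST2, the helicase genes IFIH1 and DDX60 were also above HER2 WT in both HER2 L755S libraries. IFIH1 encodes MDA5, a sensor of long double-stranded RNA. Its level was 31.5 and 53.5 CPM in HER2 L755S cells and 13.8 and 26.7 CPM in HER2 WT. Its log2 fold change was 1.07 (SE 0.42, 95% interval 0.16 to 1.98), with 1.19 and 1.002 in the pairs (edgeR, adjusted p = 0.334). The value depended on single libraries. It was 1.40 and 0.64 without HER2 L755S 1 and 2, and 0.67 and 1.65 without HER2 WT 1 and 2. DDX60 encodes another helicase, with 36.3 and 64.7 CPM in the HER2 L755S line, against 12.4 and 30.1 CPM in HER2 WT. Its log2 fold change was 1.25 (95% interval 0.25 to 2.26, edgeR, adjusted p = 0.283), with 1.55 and 1.11 in the pairs. In TPM the lines overlapped for DDX60, at 15.1 and 42.9 in HER2 L755S against 4.96 and 16.8 in HER2 WT. Estimated lengths of DDX60 ran from 1741 to 3519 bases. For both genes number 2 exceeded number 1 in each line, and the gap between numbers within HER2 WT was about as large as the gap between lines. DDX60 also depended on single libraries. It was called at 1.61 without HER2 L755S 1 (adjusted p = 0.041) and at 2.05 without HER2 WT 2 (0.014), while it was 0.77 without HER2 L755S 2 (0.83) and 0.74 without HER2 WT 1 (0.81).

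CMPK2 and RSAD2 are neighbours on chromosome 2 whose annotated bodies overlap on opposite strands. CMPK2 encodes a mitochondrial nucleotide kinase and RSAD2 the antiviral enzyme viperin. CMPK2 had 17 and 10 counts in HER2 L755S and 1 and 1 in HER2 WT, and the ratio was 15.1 with a 95% counting interval of 3.79 to 131. It did not pass (edgeR, adjusted p = 0.0875). CMPK2 was kept by the low-count filter through the HER2 L755S libraries alone, which favoured a difference in this direction. RSAD2 had 6 and 7 counts in HER2 L755S against 1 and 0 in HER2 WT, and the ratio was 14.5 with a 95% counting interval of 2.18 to 618. Counts of both were few in every library.

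Among the remaining effectors, ISG20 and SAMD9 overlapped between the lines. The exonuclease gene ISG20 stood at 9.40 and 5.61 CPM in HER2 L755S, against 8.56 and 4.06 CPM in HER2 WT, so number 1 was higher in each line. SAMD9, a growth and poxvirus restriction factor, stood at 12.7 and 19.7 CPM in HER2 L755S cells and 10.1 and 24.5 CPM in HER2 WT. The paralog SAMD9L, its neighbour on chromosome 7, had 0 counts in every library, which allows up to 3 counts in each. XAF1, a pro-apoptotic gene, had 2 and 2 rounded counts in HER2 L755S and 0 and 0 in HER2 WT, above HER2 WT but too few for a test or a fold.

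IFI6 (ENSG00000126709, minus strand, chromosome 1, 27666061 to 27672218) encodes a small mitochondrial and endoplasmic reticulum membrane protein that counters apoptosis. It stood at 71.8 and 44.0 CPM in the HER2 L755S line, against 15.2 and 15.8 CPM in HER2 WT, or 57.9 ± 19.7 and 15.5 ± 0.452 (mean ± SD, n = 2). The HER2 L755S libraries differed more from each other than the HER2 WT libraries did, and both were far above HER2 WT. The log2 fold change was 1.90 (SE 0.36, 95% interval 1.10 to 2.70), with 2.24 and 1.47 in the pairs (edgeR, adjusted p = 0.0268). Without HER2 L755S 1 the value was 1.504 and the call was lost (adjusted p = 0.061).

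IFI27, a relative of IFI6 and among the most inducible interferon genes, had few counts in every library, with 18 and 19 in HER2 L755S and 16 and 19 in HER2 WT, and the lines overlapped. IFI44 had 34 and 9 counts in HER2 L755S against 3 and 9 in HER2 WT, so its ratio of 4.01, with a 95% counting interval from 2.08 to 8.35, rests on the number 1 libraries. Its neighbour IFI44L had 1 and 2 counts in HER2 L755S and 2 and 3 in HER2 WT, and EPSTI1 had 10 and 3 in HER2 L755S and 2 and 4 in HER2 WT.

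IFI35, a protein that binds NMI, stood at 51.0 and 35.1 CPM in HER2 L755S, against 23.8 and 21.7 CPM in HER2 WT. The log2 difference in the fit was 0.92 (95% interval 0.16 to 1.67), with 1.10 and 0.69 in the pairs (edgeR, adjusted p = 0.302). PARP9, which acts with the ubiquitin ligase DTX3L, stood at 76.1 and 100 CPM in HER2 L755S cells and 36.9 and 54.6 CPM in HER2 WT, a log2 fold change of 0.94 (95% interval 0.19 to 1.70, adjusted p = 0.279). DTX3L overlaps PARP9 on the opposite strand and stood at 47.2 and 60.3 CPM in the HER2 L755S line, against 32.6 and 48.2 CPM in HER2 WT. PARP14, on the same chromosome 3, stood at 40.7 and 43.6 CPM in HER2 L755S, against 28.9 and 56.4 CPM in HER2 WT, so its HER2 L755S libraries lay between those of HER2 WT.

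**Figure D3:**
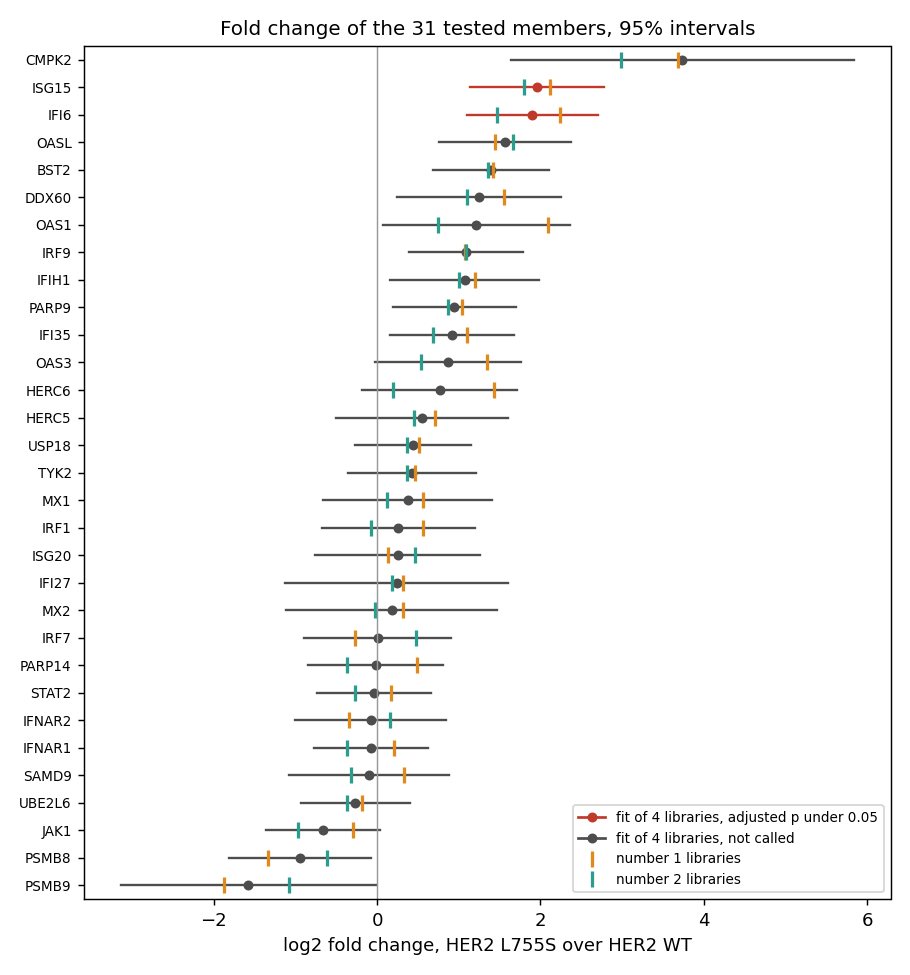
Log2 fold change of HER2 L755S over HER2 WT for the 31 tested members, with the 95% interval of the fit of 4 libraries and tick marks for the differences within number 1 (orange) and number 2 (green) libraries. ISG15 and IFI6 (red) passed the threshold, and the interval of CMPK2, from 1.63 to 5.84, is the widest.

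The immunoproteasome genes lay on the other side. PSMB8, an inducible catalytic subunit, stood at 3.97 and 6.27 CPM in HER2 L755S cells and 10.01 and 9.64 CPM in HER2 WT. Its log2 fold change was -0.94 (95% interval -1.81 to -0.07), with -1.33 in pair 1 and -0.62 in pair 2 (edgeR, adjusted p = 0.41). PSMB9, another such subunit, had 6 and 6 counts in HER2 L755S and 26 and 15 in HER2 WT. It was kept by the low-count filter through the HER2 WT libraries alone. Its log2 fold change was -1.58 (95% interval -3.14 to -0.01), with -1.88 in pair 1 and -1.08 in pair 2 (edgeR, adjusted p = 0.465). These genes overlap each other and the noncoding gene PSMB8-AS1 on chromosome 6. PSMB9 also overlaps the peptide transporter gene TAP1 on the opposite strand. Reads may have been mixed between these genes.

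Among the transcription factors, the libraries of IRF9 did not overlap between the lines and those of STAT2, IRF1 and IRF7 did. IRF9, the DNA-binding partner in ISGF3, stood at 88.5 and 104 CPM in the HER2 L755S line, against 41.8 and 48.9 CPM in HER2 WT. Each line was tight and the lines did not overlap. The log2 fold change was 1.09 (SE 0.32, 95% interval 0.39 to 1.79), with 1.08 in pair 1 and 1.09 in pair 2 (edgeR, adjusted p = 0.14). A protein-coding annotation on the same strand overlaps IRF9 and its expected counts were not whole, so part of its reads could have been assigned there.

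STAT2 stood at 74.0 and 58.6 CPM in HER2 L755S, against 65.6 and 70.6 CPM in HER2 WT, a log2 fold change of -0.04 (95% interval -0.73 to 0.66). IRF7, the amplifier of interferon alpha transcription, stood at 32.0 and 24.2 CPM in HER2 L755S cells and 38.7 and 17.4 CPM in HER2 WT, so the HER2 L755S values lay between those of HER2 WT. Its pairs had opposite signs, at -0.27 and 0.48. IRF1 stood at 4.79 and 3.47 CPM in the HER2 L755S line, against 3.24 and 3.65 CPM in HER2 WT. Intervals of these 3 genes include changes of 1.5-fold either way, so the data do not show that the lines were alike.

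The receptor chains had fold changes near 0, with wide intervals. IFNAR1 stood at 76.1 and 59.8 CPM in HER2 L755S, against 66.1 and 77.2 CPM in HER2 WT, a log2 fold change of -0.08 (95% interval -0.78 to 0.62). IFNAR2 stood at 3.32 and 4.75 CPM in HER2 L755S cells and 4.23 and 4.27 CPM in HER2 WT, also -0.08 (95% interval -1.002 to 0.85). JAK1 stood at 162 and 155 CPM in the HER2 L755S line, against 199 and 304 CPM in HER2 WT, with HER2 WT 2 the high library. JAK1 had a log2 fold change of -0.66 (95% interval -1.36 to 0.04), with -0.29 in pair 1 and -0.97 in pair 2 (edgeR, adjusted p = 0.523). TYK2 stood at 121 and 75.0 CPM in HER2 L755S, against 87.9 and 58.0 CPM in HER2 WT, and number 1 was higher in each line. The log2 fold change of TYK2 was 0.43 (95% interval -0.36 to 1.21), with 0.46 in pair 1 and 0.37 in pair 2 (edgeR, adjusted p = 0.888).

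Per length, the members spanned a wide range. In HER2 L755S cells the highest mean TPM values were 389 for BST2, 111 for IFI6, 109 for TYK2, 107 for UBE2L6 and 106 for IRF9. In HER2 WT cells they were 165 for BST2, 143 for UBE2L6, 92.4 for TYK2, 68.1 for JAK1 and 62.5 for IRF9, with IFI6 at 32.5 and ISG15 at 9.95. BST2 stood clear of UBE2L6 in HER2 L755S, at 284 to 494 against 83.1 to 130 TPM, but the ranges overlapped in HER2 WT, at 140 to 189 against 135 to 150 TPM. In HER2 L755S cells, IFI6, TYK2, UBE2L6 and IRF9 overlapped in range and their order is not resolved. OAS2, RSAD2, CMPK2, XAF1, EPSTI1, IFI44L and SAMD9L averaged at most 0.233 TPM over the 4 libraries.

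**Figure D4:**
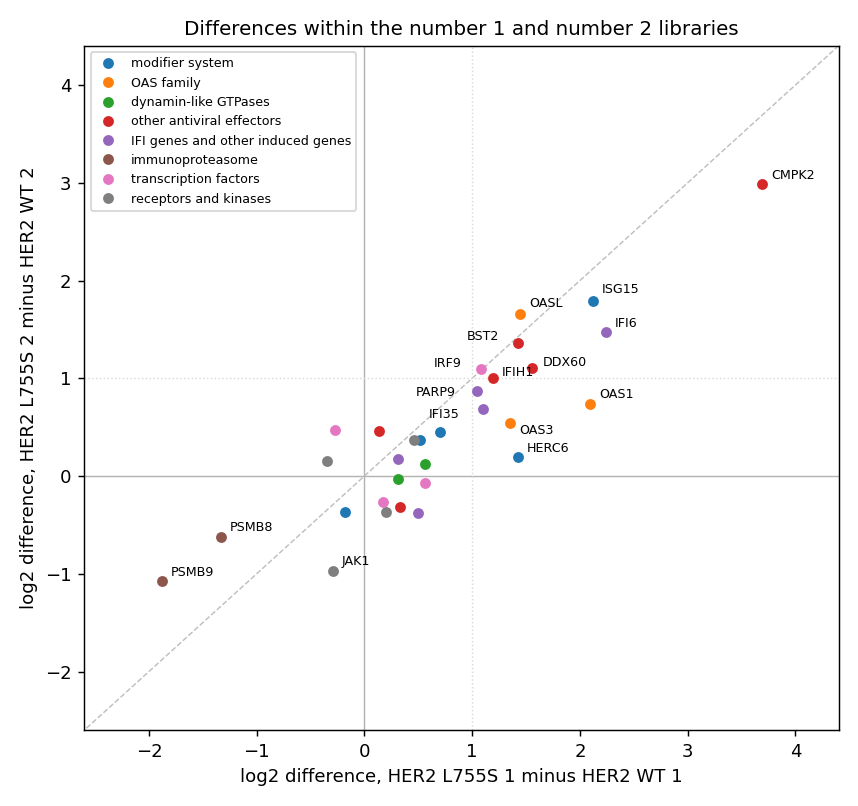
Log2 CPM difference of HER2 L755S minus HER2 WT in the number 1 libraries (x axis) and in the number 2 libraries (y axis) for the 31 tested members, coloured by role, with the dashed line at equality and dotted lines at 1. The 8 members past 1 in both are CMPK2, ISG15, IFI6, OASL, BST2, DDX60, IFIH1 and IRF9, while PSMB8 and PSMB9 are below 0 in both. The low-count filter kept CMPK2 through HER2 L755S alone and PSMB9 through HER2 WT alone.

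Other genes of the pathway were taken from a list of 99, of which 73 were tested. Called higher were IFIT1, IFIT2 and IFIT5, which encode RNA-binding antiviral proteins, and called lower were IFITM2, IFITM3 and TRIM5 (edgeR, adjusted p under 0.05). Over all tested genes 0.738% were called higher and 0.949% lower. The median log2 fold change of the 73 was 0.20. IFIT1 stood at 49.0 and 96.8 CPM in HER2 L755S cells and 6.36 and 19.5 CPM in HER2 WT (log2 2.49), and IFIT2 at 12.2 and 16.4 CPM in the HER2 L755S line, against 2.60 and 3.68 CPM in HER2 WT (log2 2.19). IFIT5 stood at 15.7 and 37.5 CPM in HER2 L755S, against 4.48 and 7.33 CPM in HER2 WT (log2 2.17). In each of these genes both HER2 L755S libraries were above both HER2 WT libraries. IFIT3 stood at 3.86 and 5.375 CPM in HER2 L755S cells and 0.402 and 1.31 CPM in HER2 WT, and did not pass (log2 2.44, adjusted p = 0.0703). TRIM5, a retroviral restriction factor, had 0 and 0 counts in HER2 L755S and 17 and 26 in HER2 WT. It was at least 12.8-fold lower in HER2 L755S (floor of 3 counts over the 2 libraries). TRIM5 passed the low-count filter through the HER2 WT libraries only. IFITM3 stood at 2.56 and 1.25 CPM in the HER2 L755S line, against 36.2 and 37.8 CPM in HER2 WT, and IFITM2 at 0.479 and 0.117 CPM in HER2 L755S, against 6.24 and 5.30 CPM in HER2 WT. These neighbours are similar in sequence, so reads can be shared between them.

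IRF3, which drives interferon beta transcription, stood at 79.5 and 54.9 CPM in HER2 L755S cells and 74.1 and 47.6 CPM in HER2 WT, with no separation. The double-stranded RNA receptor TLR3 was not tested, with 0.0684 and 0.039 CPM in HER2 L755S, against 0.216 and 0.276 CPM in HER2 WT. Of 9 interferon genes none was tested and 5 (IFNA1, IFNA2, IFNE, IFNK and IFNG) had 0 counts in every library. The other 4, IFNB1, IFNL1, IFNL2 and IFNL3, brought the sum to 11 and 8 counts in HER2 L755S and 4 and 1 in HER2 WT, and the ratio was 4.25 with a 95% counting interval of 1.53 to 14.6. IFNL2 and IFNL3 are near-identical, and these counts are a few reads per library.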

How the data were processed

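RNA was measured in 4 MM134 libraries (TruSeq, poly(A)-selected, 250 ng input), per the labels' protocols. Each deposited table is RSEM output per the file headers, with an expected count (RSEM's estimate, often fractional), TPM and a mean transcript length per gene, all made by the authors. STAR, edgeR and GRCh38 are named in the submitters' processing notes, without versions or settings. The names of the deposited number 2 tables carry the word merged, without saying what was merged. Fractional expected counts were found for 9.53% to 11.5% of genes per library.

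Expected counts were rounded. filterByExpr left 16538 of 60675 genes, which were scaled by TMM and tested with edgeR 4.0.16 (glmQLFit, glmQLFTest, two-sided, R 4.3.3) with no replicate term, Benjamini-Hochberg adjusted over all tested genes at 0.05. SEs and 95% intervals come from the F statistic. Pair differences use log2 CPM with a prior count of 0.5. Intervals of count ratios are exact binomial. The fit was tested on simulated data with planted changes larger than those of ISG15 and IFI6. That test does not show how often changes of the size reported for these genes are found. Alternatives used DESeq2 1.42.0, limma-voom 3.58.1, other scalings and filters, a replicate block, and each library left out. A fit without a library takes that line's spread from the other line.

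More values are given for members that were called, past 1 in both pairs or among the highest by TPM in their role, though not every statistic for each. Of the other list, called genes and IRF3, IFIT3 and TLR3 were named, 1 further gene is not reported here, and DTX3L, DDX58, ESR1 and the interferon genes were added after values were seen. BST2, DDX60, MX1 and SAMD9 motif sites were chosen after their values were seen. Members and lists were chosen with earlier results of these data known. Positions are from GENCODE 29 and promoters from RefSeq (GRCh38.p14), both on GRCh38. In GENCODE 29, 16 members overlap a gene on the opposite strand.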

Additional observations from a re-analysis of the deposited data

How the results depend on the processing

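The counts of called genes depended on the fit. Of 16538 tested genes 122 were called higher and 157 lower. DESeq2 gave 276 and 309 (1.67% and 1.87%), no filter 328 and 431 of 27227 tested genes, and the replicate block 725 and 1018 (4.38% and 6.16%). Called members, 2 higher and 0 lower of 31 tested, became 5 higher with DESeq2 (ISG15, IFI6, OASL, BST2, IRF9). With no filter 5 of 37 tested members were higher (DDX60 in place of IRF9). With the replicate block 12 were higher and 1, PSMB8, was lower. The other 10 higher were OAS1, OAS3, OASL, CMPK2, BST2, IFIH1, DDX60, IFI35, PARP9 and IRF9, beside ISG15 and IFI6. The labels do not say what the replicate number stands for. Number 2 minus number 1 correlated between the lines at r = 0.427 across 16538 genes, which are not independent, so same-numbered libraries deviated together, but 2 pairs are too few to treat the libraries as paired. Other interferon pathway genes, 3 higher and 3 lower, became 5 and 5 with DESeq2, 5 and 5 with no filter, and 7 and 7 with the block.

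With each library left out, all higher genes numbered 160 to 220 and all lower genes 184 to 328, higher members 2 to 4 and lower members 0, and other pathway genes 3 to 5 higher and 2 to 4 lower. ISG15 was called in all 12 fits and IFI6 in 11. Members near 0 changed sign. PARP14 went to 0.0018 with DESeq2 and with its size factors, 0.0641 with limma-voom and 0.0583 with the block, SAMD9 to 0.0095 with limma-voom, and IRF7 to -0.0676 with no scaling and -0.0168 with at least 50 counts. With a library left out, values spanned -0.24 to 0.49 for MX2, -0.18 to 0.88 for ISG20, -0.60 to 0.70 for SAMD9, -0.42 to 0.56 for PARP14, -0.22 to 0.12 for STAT2, -0.45 to 0.69 for IRF7, -0.26 to 0.083 for IFNAR1 and -0.36 to 0.16 for IFNAR2. The cause of these changes was not tested. With DESeq2 size factors MX1 joined the members above HER2 WT in both libraries, making 15.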

Other observations

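The cytosolic DNA sensing pair had opposite values, and these genes were chosen after their values were seen. MB21D1, the gene of the sensor cGAS, stood at 1.23 and 2.53 CPM in the HER2 L755S line, against 0.309 and 0.310 CPM in HER2 WT (log2 2.58, SE 0.64). With 10 and 9 counts in HER2 WT, MB21D1 passed the low-count filter through the HER2 L755S libraries only. TMEM173, the gene of its adaptor STING, stood at 0.718 and 0.779 CPM in HER2 L755S, against 3.09 and 3.03 CPM in HER2 WT (log2 -2.03, SE 0.50). Neither passed (edgeR, adjusted p = 0.0754 for each), and both are low in every library.

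Genes that act with PSMB8 and PSMB9 lay on either side of HER2 WT, and they too were chosen after their values were seen. PSMB10 stood at 6.26 and 6.43 CPM in HER2 L755S cells and 5.93 and 3.99 CPM in HER2 WT. The activator subunit gene PSME1 stood at 171 and 167 CPM in the HER2 L755S line, against 121 and 105 CPM in HER2 WT, and PSME2 at 162 and 202 CPM in HER2 L755S, against 125 and 111 CPM in HER2 WT. Among peptide transporter genes, TAP1 stood at 15.2 and 13.8 CPM in HER2 L755S, against 21.3 and 21.1 CPM in HER2 WT. TAP1 overlaps PSMB9 on the opposite strand, so reads may be shared between them. TAP2 stood at 18.4 and 17.9 CPM in HER2 L755S, against 13.2 and 12.8 CPM in HER2 WT. None of these passed the test (edgeR, adjusted p from 0.53 to 0.958).

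The helicase genes IFIH1, DDX60 and DDX58 were higher in number 2 than in number 1 in both lines, and were chosen after their values were seen. Other helicase genes of the list went the other way, with number 2 minus number 1 at -0.22 in HER2 L755S and -0.24 in HER2 WT for DHX58, and at -0.63 in HER2 L755S and -0.26 in HER2 WT for HELZ2 (log2). DDX58, which encodes RIG-I, stood at 10.8 and 21.3 CPM in HER2 L755S cells and 9.27 and 17.8 CPM in HER2 WT, with no separation of the lines (log2 0.25).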
